A study of Homo sapiens with 6 samples.

Results

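The giant cytolinkers and the AHNAK proteins were examined in RNA sequencing of cells labelled HCT116, an established human colorectal cancer cell line. They are 8 genes of the 18750 with counts, namely AHNAK, AHNAK2, PLEC, DST, MACF1, EPPK1, UTRN and SPTAN1, and their members in the deposited table were 120 of 98782 annotated transcripts. The genes were selected on values of these same libraries, since their gene sums and the division of their counts between transcripts were known when they were chosen. Differences between the groups in these values are therefore given as a description. Where members past a threshold are counted, the share over all genes stands beside the count or is said to be missing, and nothing is read from it. All 8 passed the filter on low counts of the fit over 13750 genes.

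Cells were grown in serum-containing medium and transfected with short interfering RNA (siRNA). In the group si-AC010789.1 it was directed at the long noncoding RNA AC010789.1, and in the group siRNA-NC it was a negative control. Each group had 3 replicate libraries, paired-end and read on an Illumina NovaSeq. The study reports large differences within the group and proposes that cells of different passages in each repeat may be the reason. It left out genes that differed significantly within the group, and no gene was left out on this ground here. A single siRNA sequence was used against AC010789.1, so its effect and that of its sequence cannot be told apart. The study reports that it verified the knockdown of AC010789.1 in its RNA sequencing samples. The level of AC010789.1 was not analysed here, so the labels were not checked against the targeted RNA. The authors deposited whole-number counts per transcript, from 11277222 to 13443866 in a library. Here 3 counts corresponded to between 0.223 and 0.266 CPM, the counts of a gene per 1000000 counts of the library after TMM scaling, which adjusts for library composition. Floors of this kind cover counting error only. Among markers of the labelled line, the keratins KRT8 and KRT18 were at 444 to 850.5 and 351 to 535 CPM, but the epithelial adhesion genes EPCAM and CDH1 were at 3.1 to 5.59 and 0.675 to 1.05 CPM in all 6 libraries and KRT19 had no counts. Of the other markers on this list, ELF3 was at 59.4 to 91.3, CLDN4 at 0.32 to 28.9 and LGALS4 at 0 to 0.225 CPM. The identity of the line was not tested here. VIM, an intermediate filament gene of mesenchymal cells, lay between 659 and 915 CPM. Of 6 fibroblast markers 4 were tested and none was called, with sums of 59.7 to 69.3 CPM under siRNA-NC and 63.8 to 68.6 CPM under si-AC010789.1. Of 5 leukocyte markers 1 was tested, and the list summed to 6.08 to 9.05 CPM and 2.59 to 5.35 CPM, with 3 markers at 0. The part of these differences in the results was not tested.

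Cytolinkers are very large proteins that tie the filament systems of the cell to each other and to the membrane. Plakins such as plectin hold intermediate filaments at junctions and hemidesmosomes, and spectraplakins join actin to microtubules. Utrophin and spectrin carry arrays of spectrin repeats beneath the membrane, and the AHNAK proteins are scaffolds of the membrane and of calcium-dependent repair, built from long tandem repeats.

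The levels of 7 of the 8 genes differed by at most 1.89 times between libraries, and AHNAK stood apart from them. Over all 6 libraries the highest value was 22.9 times the lowest for AHNAK, 1.89 times the lowest for AHNAK2 and from 1.08 to 1.36 times for the other 6 genes. None of the 8 was called in the fit over all genes (quasi-likelihood test of edgeR, p adjusted by Benjamini-Hochberg, threshold 0.05), where 135 of 13750 genes were called, 0.982%. With an unadjusted p under 0.05 there was 1 member, beside 17.2% of all genes, and DESeq2 called 1 of the 7 members for which it gave an adjusted p, beside 5.03% of all genes. None had an absolute log2 fold change over 1 with an unadjusted p under 0.05 from edgeR, which 0.778% of all genes had. The study's methods give these limits beside Cuffdiff and do not say whether p was adjusted. The groups did not overlap for 3 members, AHNAK2, DST and UTRN, all lower in si-AC010789.1. Groups that did not overlap occurred in 25.1% of all tested genes, and in 12.9% with si-AC010789.1 lower. The median log2 fold change was -0.0672 over the members and -0.000662 over all genes. In bulk RNA, fewer cells with a transcript and less of it per cell cannot be told apart.

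**Figure D1:**
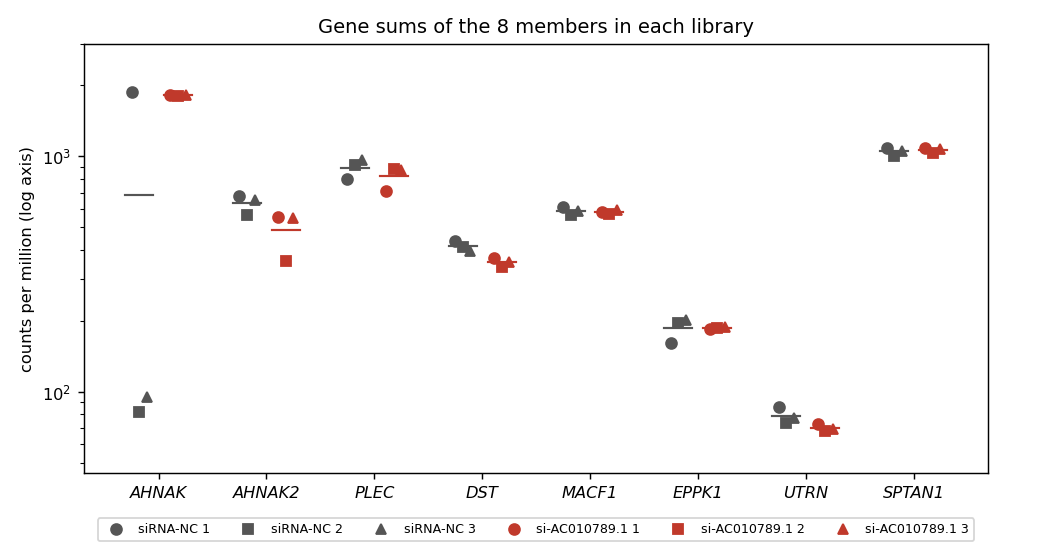
Level of each gene (CPM, log axis) in the 3 siRNA-NC libraries (grey) and the 3 si-AC010789.1 libraries (red), with a line at each group mean. The siRNA-NC libraries 2 and 3 of AHNAK lie at 81.8 and 94.6 CPM, while the other 4 lie between 1811 and 1872 CPM.

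AHNAK (ENSG00000124942.13) encodes the giant scaffold that gave the family its name. It lies on chr11:62433542-62556235 of GRCh38, minus strand. Its leading transcript AHNAK-202 (ENST00000378024) has 18787 nt in 5 exons and an annotated protein of 5890 residues. AHNAK2 (ENSG00000185567.6), its paralog, lies on chr14:104937244-104978357, minus strand, and is led by AHNAK2-201 (ENST00000333244) with 18254 nt and 5795 residues. Both are built from repeats that can be read in the transcript itself. Of all windows of 50 nt, 8.63% occurred more than once within AHNAK-202 and 12.4% within AHNAK2-201, and none of their windows occurred in another gene. Any repeated window was present in 5.36% of 3116 leading transcripts of at least 5000 nt, among which AHNAK2 ranked 15 and AHNAK 18 by this share. The most repeated 30 bases of each transcript (GENCODE v29, coding strand) are shown because the copies run through most of the leading transcript of each gene. They occurred 9 times in AHNAK-202, from nt 2883 to 14621 (chr11:62520071-62531809), and 18 times in AHNAK2-201, from nt 2137 to 13530 (chr14:104942041-104953434). Copies followed each other most often at 768 nt in AHNAK and at 495 nt in AHNAK2.
AHNAK, 9 copies: ggcccagactggcacctgaagatgcccaag
AHNAK2, 18 copies: agcaagttcaaaatgcccaagttcaagatg

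AHNAK had 21123, 1085 and 1261 counts in siRNA-NC libraries 1, 2 and 3, and 20939, 22664 and 22393 in si-AC010789.1 libraries 1, 2 and 3. In CPM these were 1872, 81.8 and 94.6 under siRNA-NC and 1829, 1811 and 1813 under si-AC010789.1. Libraries 2 and 3 of siRNA-NC were low, and library 1 lay slightly above the si-AC010789.1 libraries, at 1.03 times their mean, so the groups overlapped. The range within siRNA-NC was 22.9-fold and that within si-AC010789.1 1.01-fold. The group means were 683 ± 1030 CPM and 1818 ± 9.83 CPM (SD, n = 3 each), and the fitted log2 fold change was 1.41 with a standard error of 1.16. This value depended on single libraries and on the fit. With the replicate number as a block, although the labels do not say whether the numbers pair the libraries, it was 3.12. Without siRNA-NC replicate 1 it was 4.37 with a standard error of 0.08, the mean of si-AC010789.1 was 20.6 times that of the other siRNA-NC libraries, and AHNAK was 1 of the 15 genes called of 14002 (0.107%). With siRNA-NC replicate 1 as the only control, a setting added after the data were seen, it was -0.04.

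The leading transcript carried this difference. The program that assigned counts to transcripts is not given in the sources used here, so an assignment that failed for this transcript in siRNA-NC libraries 2 and 3 and a lower level of its RNA cannot be told apart, and the 22.9-fold range and the 20.6-fold ratio are differences in the deposited counts. AHNAK-202 had 21073, 479 and 419 counts under siRNA-NC against 20670, 22521 and 22339 under si-AC010789.1. AHNAK-203 (ENST00000525875), a noncoding processed transcript of 793 nt that shares 348 nt with AHNAK-202, went the other way, with 6, 464 and 479 counts against 0, 0 and 11. A count of 0 allows up to 0.261 and 0.241 CPM in si-AC010789.1 libraries 1 and 2. AHNAK-201, of 1024 nt, had 13, 82 and 313 against 236, 87 and 17 counts and did not follow the same libraries. AHNAK-202 thus held 99.8% of the counts of the gene in siRNA-NC library 1, 44.1% and 33.2% in libraries 2 and 3, and from 98.7% to 99.8% in si-AC010789.1. The counts that AHNAK-202 lacked in siRNA-NC libraries 2 and 3 were not found at another transcript of AHNAK. In the whole table, no transcript was at least 1000 CPM higher in both of these libraries than in each of the other 4. The values 200 and 500 CPM were exceeded by 3 and 2 transcripts, those of MT-CO1 and PDIA6 and, at 200 CPM, EEF1A1, which are named after their values were seen. The lower of these 2 libraries exceeded the highest of the other 4 by 988 CPM in MT-CO1-201, just under the limit of 1000. It did so by 507 CPM in PDIA6-207 and 307 CPM in EEF1A1-203 (without TMM scaling). PDIA6-207 had 39, 8298 and 6867 counts under siRNA-NC against 36, 30 and 26 under si-AC010789.1. MT-CO1-201 and EEF1A1-203 had at least 198077 and 9500 counts in each library. A link of these transcripts to AHNAK was not tested.

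AHNAK differed more between libraries than most genes of its level. Of 4695 genes with a mean of at least 50 CPM, 10 (0.213%) differed over 8-fold between libraries of a group, 9 of them under siRNA-NC and 5 under si-AC010789.1, while the median fold was 1.11 and 1.10. AHNAK was the only member among the 10 and ranked 2 in siRNA-NC, after the mitochondrial pseudogene MTATP6P1. It was the only one of the 4695 genes for which siRNA-NC libraries 2 and 3 were both more than 4-fold below each other library. Mitochondrial transcripts took 7.563%, 8.11% and 8.648% of the counts of the siRNA-NC libraries and 8.104%, 8.357% and 8.268% of those of the si-AC010789.1 libraries, so similar shares stood beside low and high AHNAK. Transcripts of at least 10000 nt took 4.91% to 5.01% of the counts under siRNA-NC and 4.99% to 5.08% under si-AC010789.1, and 4.82% to 4.94% and 4.81% to 4.90% without AHNAK.

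**Figure D2:**
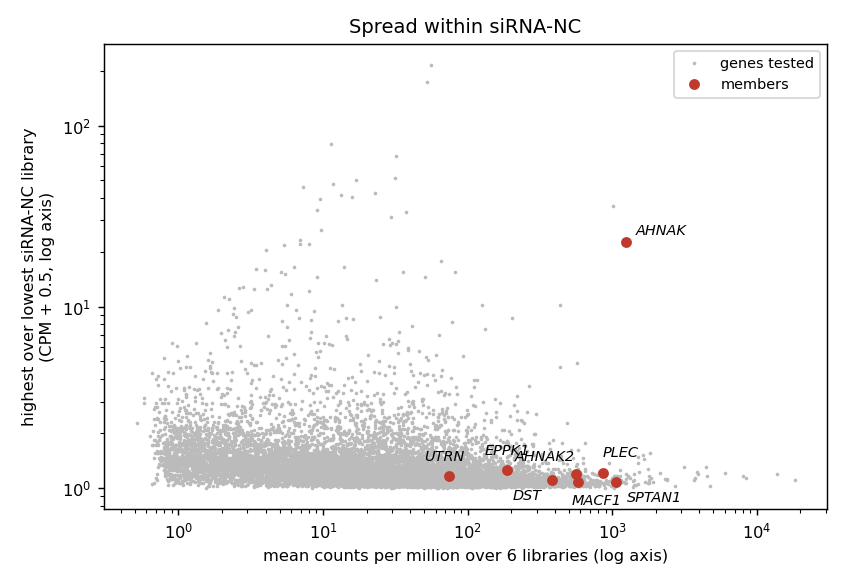
Highest over lowest siRNA-NC library (CPM + 0.5, log axis) against the mean CPM of 6 libraries (log axis) for 13750 tested genes in grey, with the 8 members in red. AHNAK lies at 22.9-fold and the other 7 members lie at 1.26-fold or less.

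AHNAK2 had 7667, 7485 and 8676 counts under siRNA-NC against 6322, 4503 and 6770 under si-AC010789.1, or 679.6, 564 and 651 CPM against 552, 359.8 and 548 CPM. The highest si-AC010789.1 library was just under the lowest siRNA-NC library, and library 2 of si-AC010789.1 was the lowest of all. The group means were 632 ± 59.9 and 487 ± 110 CPM, with a log2 fold change of -0.38 (standard error 0.17). Without si-AC010789.1 replicate 2 it was -0.20, and the other fits that left out a library gave values down to -0.48. AHNAK2 did not share the pattern of AHNAK, and its leading transcript held from 98.9% to 99.3% of its counts in each library. AHNAK2 overlaps PLD4 on the opposite strand, which was at 0.0842 and 0.0582 CPM on average.

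The spectraplakins DST (dystonin) and MACF1 (microtubule-actin cross-linking factor) are paralogs, and each has transcripts with and without a block of exons of the same lengths. DST (ENSG00000151914.19) lies on chr6:56457987-56954628, minus strand, and MACF1 (ENSG00000127603.25) on chr1:39081316-39487177, plus strand. In DST-204 an exon of 5508 nt is followed by exons of 150, 216, 150 and 234 nt. In MACF1-201 a first exon of 5516 nt is followed by exons of 150, 216, 150 and 234 nt in the same order. Set side by side without gaps, the 4 short pairs were identical at 45.3%, 39.8%, 37.3% and 54.7% of their bases. A further pair of coding exons of 111 nt near the end of both genes, at 54.1%, was also alternative in both. The pair of 234 nt, the most alike, is shown with the identical bases in capitals (128 of 234). The shares given next compare transcripts with and without this block. It lies on chr6:56601443-56601676 in DST (minus strand) and on chr1:39346977-39347210 in MACF1 (plus strand, both GRCh38, coding).
DST: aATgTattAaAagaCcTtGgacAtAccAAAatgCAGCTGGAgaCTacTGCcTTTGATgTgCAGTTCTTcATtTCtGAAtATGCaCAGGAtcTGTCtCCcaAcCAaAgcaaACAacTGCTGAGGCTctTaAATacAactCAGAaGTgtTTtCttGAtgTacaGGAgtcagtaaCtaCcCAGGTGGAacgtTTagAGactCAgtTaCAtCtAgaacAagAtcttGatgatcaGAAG
MACF1: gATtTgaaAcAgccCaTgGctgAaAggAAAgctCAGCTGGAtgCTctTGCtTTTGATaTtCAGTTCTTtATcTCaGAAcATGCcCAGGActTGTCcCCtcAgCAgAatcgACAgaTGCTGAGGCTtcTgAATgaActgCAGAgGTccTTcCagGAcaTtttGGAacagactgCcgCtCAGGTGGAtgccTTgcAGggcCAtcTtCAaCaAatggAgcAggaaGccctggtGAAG

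In DST only 1 of the counted transcripts that span this block, DST-204, carries it. DST-204 had 244, 620 and 1022 counts under siRNA-NC against 222, 666 and 306 under si-AC010789.1. It took 7.96%, 20.3% and 39.2% of the counts of the spanning transcripts under siRNA-NC, and 10.1%, 31.7% and 13.8% under si-AC010789.1. In MACF1 the shares were 48.5%, 63.5% and 41.5% under siRNA-NC and 53.3%, 65.6% and 42.9% under si-AC010789.1. Inclusion was thus higher in MACF1 than in DST in every library. Within each gene the libraries of a group differed by more than the group means, which were 22.5% ± 15.7 and 18.5% ± 11.5 in DST and 51.2% ± 11.2 and 53.9% ± 11.4 in MACF1 (SD, n = 3 each). These shares rest on counts the authors assigned to whole transcripts, and how reads common to several transcripts were divided is not given in the sources used here.

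DST summed to 4930, 5447 and 5297 counts under siRNA-NC against 4238, 4257 and 4401 under si-AC010789.1, or 437, 411 and 397 CPM against 370.2, 340.1 and 356 CPM. All si-AC010789.1 libraries were lower than all siRNA-NC libraries, with means of 415 ± 20.1 and 356 ± 15.0 CPM. The log2 fold change of -0.22 (standard error 0.05) lay between -0.26 and -0.18 with 1 library left out.

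The lower sum of DST in si-AC010789.1 was not shared alike by its transcripts. DST-201 (ENST00000244364, 16742 nt) had 1370, 1264 and 876 counts under siRNA-NC against 1391, 1063 and 1217 under si-AC010789.1, and the groups overlapped. DST-207 (18030 nt) had 1452, 1168 and 709 against 577, 373 and 702 counts, or 129, 88.1 and 53.2 against 50.4, 29.8 and 56.8 CPM, and library 3 of siRNA-NC lay below library 3 of si-AC010789.1. DST-203 (5024 nt, incomplete in the annotation) had 1142, 1322 and 1411 against 1015, 1065 and 1143 counts, or 101, 99.7 and 106 against 88.7, 85.1 and 92.6 CPM, so that the groups did not overlap at equal depth. DST-205 (8999 nt), the transcript with an exon of 2730 nt on chr6:56617986-56620715, went the other way with 127, 389 and 356 against 426, 468 and 425 counts, or 11.3, 29.3 and 26.7 against 37.2, 37.4 and 34.4 CPM. That exon is counted through 1 transcript, DST-205, so its shares rest on the same counts. It was included in 3.9%, 11.2% and 11.8% under siRNA-NC and 16.3%, 17.8% and 16.0% under si-AC010789.1, so the groups did not overlap. How often groups do not overlap was not computed over all transcripts or exons, so nothing is read from these cases. The leading transcript of DST was DST-207 in siRNA-NC library 1, DST-203 in siRNA-NC libraries 2 and 3 and in si-AC010789.1 library 2, and DST-201 in si-AC010789.1 libraries 1 and 3.

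MACF1 summed to 6877, 7489 and 7778 counts under siRNA-NC against 6667, 7129 and 7288 under si-AC010789.1, or 609.5, 565 and 584 CPM against 582, 569.6 and 590.2 CPM. The groups overlapped throughout, with means of 586 ± 22.5 and 581 ± 10.4 CPM and a log2 fold change of -0.01 (standard error 0.04). Under this steady sum, MACF1-201 (19141 nt) and MACF1-205 (14496 nt) exchanged places. MACF1-201 had 2080, 3258 and 2165 counts under siRNA-NC against 2450, 2969 and 1992 under si-AC010789.1. MACF1-205, which starts further upstream and lacks the exon block, had 2502, 1939 and 3082 against 2233, 1801 and 2789. MACF1-201 led in library 2 of siRNA-NC and libraries 1 and 2 of si-AC010789.1, and MACF1-205 led in the others. MACF1-230, the third by counts, had 755, 871 and 911 against 617, 719 and 1043 counts and the groups overlapped.

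SPTAN1 (ENSG00000197694.15), which encodes the alpha chain of nonerythroid spectrin, lies on chr9:128552558-128633662, plus strand. Its main transcripts differ by short coding exons whose length is a multiple of 3, which keep the reading frame. Of these the exons of 60, 15 and 63 nt are shown in capitals between the 15 spliced bases on either side, because they separate the transcripts that exchanged their counts. They lie on chr9:128592983-128593042, chr9:128609651-128609665 and chr9:128629125-128629187 (GRCh38, plus strand) and are exon 23 of SPTAN1-202, exon 37 of SPTAN1-203 and exon 51 of SPTAN1-223.
SPTAN1, 60 nt: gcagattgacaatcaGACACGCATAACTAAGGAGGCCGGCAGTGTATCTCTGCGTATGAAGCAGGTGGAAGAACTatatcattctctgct
SPTAN1, 15 nt: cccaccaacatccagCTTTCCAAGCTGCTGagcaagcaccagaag
SPTAN1, 63 nt: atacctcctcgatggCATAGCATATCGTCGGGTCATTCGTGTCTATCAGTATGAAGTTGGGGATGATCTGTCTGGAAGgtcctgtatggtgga

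SPTAN1 was among the steadiest sums, with 12239, 13352 and 14083 counts under siRNA-NC against 12470, 12947 and 13236 under si-AC010789.1. In CPM these were 1085, 1007 and 1057 against 1089, 1034 and 1072, so the groups overlapped, with means of 1049 ± 39.5 and 1065 ± 28.0 CPM and a log2 fold change of 0.02 (standard error 0.04). The counts assigned to its transcripts were far less steady, and how reads common to them were divided is not given in the sources used here. SPTAN1-201 (ENST00000358161, 7794 nt) had 1653, 7016 and 3508 counts under siRNA-NC against 2047, 2168 and 4262 under si-AC010789.1. SPTAN1-202 (ENST00000372731, 7889 nt), which adds 95 nt to SPTAN1-201, had 4028, 75 and 4164 against 4547, 4639 and 299. SPTAN1-203 (ENST00000372739, 7868 nt) had 3307, 11 and 2369 against 2465, 2598 and 3560. Library 2 of siRNA-NC was low in SPTAN1-202 and SPTAN1-203, and library 3 of si-AC010789.1 was low in SPTAN1-202 alone. In siRNA-NC library 2 the counts lay in SPTAN1-201 and in SPTAN1-223, which had 145, 4291 and 192 against 173, 351 and 477 counts.

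Read by exon, the 60-nt exon was included in 72.4%, 40.9% and 58.9% of the counts under siRNA-NC and in 71.6%, 72.3% and 52.2% under si-AC010789.1. The 15-nt exon was included in 46.5%, 40.2% and 37.4% against 37.3%, 38.1% and 55.5%. The 63-nt exon reached 36.2% in siRNA-NC library 2 and stayed between 1.36% and 4.65% in the other 5 libraries. For none of these 3 exons were the groups apart. The other alternative exon, of 126 nt (chr9:128568772-128568897), was included in 91.6%, 93.0% and 90.7% against 88.1%, 88.8% and 82.2%. Its groups did not overlap, which was not compared with a share over all exons. Its shares are the complement of those of SPTAN1-228, the retained-intron transcript that lacks it, among the transcripts that span it. SPTAN1 overlaps WDR34 on the opposite strand (177 and 192 CPM on average), and the strand setting of the counting is not given in the sources used here.

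**Figure D3:**
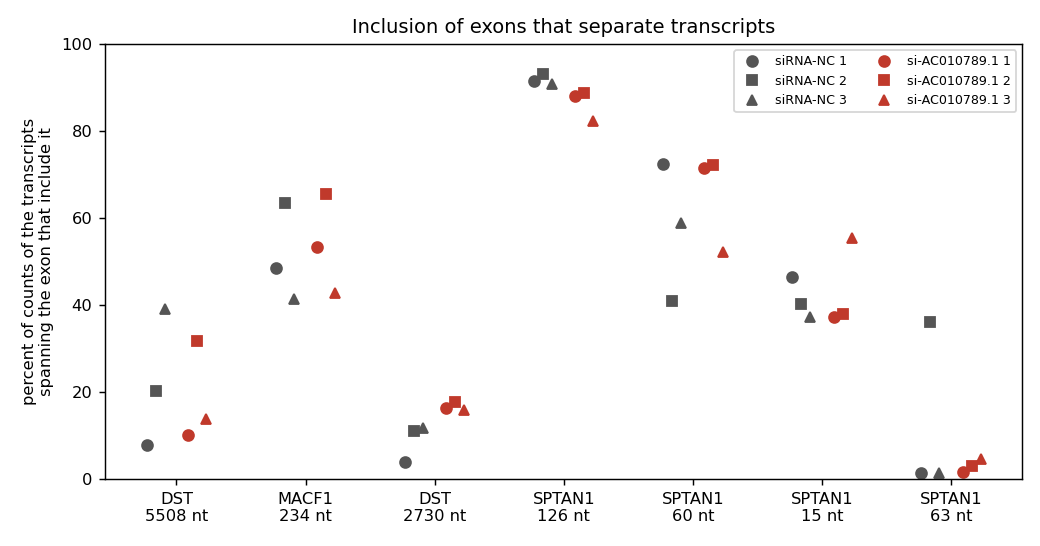
Inclusion of alternative exons in DST, MACF1 and SPTAN1, in percent of the counts of the transcripts that span each exon, for the 3 siRNA-NC libraries (grey) and the 3 si-AC010789.1 libraries (red). The exon of 5508 nt stands for the block in DST and that of 234 nt for the block in MACF1, where the share also reflects where transcripts start. The exons of 2730 and 126 nt are those whose groups do not overlap, and no share over all exons was computed beside them.

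UTRN (ENSG00000152818.18), which encodes the utrophin that links actin to the dystroglycan complex of the membrane, lies on chr6:144285701-144853034, plus strand. It had 970, 976 and 1031 counts under siRNA-NC against 837, 850 and 859 under si-AC010789.1, or 86.0, 73.6 and 77.4 CPM against 73.1, 67.9 and 69.6 CPM. The groups did not overlap, though library 2 of siRNA-NC and library 1 of si-AC010789.1 were nearly equal. The means were 79.0 ± 6.35 and 70.2 ± 2.66 CPM, and the log2 fold change was -0.17 (standard error 0.08), with values from -0.22 (without siRNA-NC replicate 2) to -0.10 (without siRNA-NC replicate 1) when 1 library was left out. UTRN-204 (12339 nt, 74 exons) led in each library with 96.4% to 98.1% of the counts, while the next transcripts, UTRN-201 and UTRN-208, had at most 17 and 10 counts in a library.

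The study followed AC010789.1 as a partner of the microRNA miR-432-3p, so the 3′ UTRs of the members were searched for matches to its seed. The mature sequence (RefSeq, GRCh38.p14, chr14:100884544-100884564, plus strand) is shown with bases 2 to 8 in capitals. A match was CCATCCA or CATCCAA on the transcript strand. None was found in the annotated 3′ UTR of the leading transcript of 7 members, from 250 nt in EPPK1 to 2037 nt in UTRN, and the leading transcript of PLEC has none annotated. Of 11419 tested genes with a 3′ UTR in the leading transcript, 16.5% held a match, with a median length of 1235 nt.
hsa-miR-432-3p: cUGGAUGGcuccuccaugucu

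PLEC (ENSG00000178209.15) encodes plectin, which binds intermediate filaments, actin and integrin, and its isoforms differ by alternative first exons that direct them to different sites of the cell. It lies on chr8:143915147-143976734, minus strand. The gene had 9050, 12122 and 12914 counts under siRNA-NC against 8131, 11083 and 10779 under si-AC010789.1, or 802, 914 and 969 CPM against 710.2, 886 and 873 CPM. The groups overlapped, and library 1 was the lowest of each group. The means were 895 ± 85.0 and 823 ± 97.8 CPM, with a log2 fold change of -0.12 (standard error 0.11), which was -0.03 without si-AC010789.1 replicate 1.

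Below the gene sum, the counts assigned to PLEC transcripts with different first exons changed between libraries in a manner that did not follow the groups. PLEC-204 and PLEC-206 share 14556 nt, and how common reads were divided is not given in the sources used here. A switch of first exons and a change in assignment therefore cannot be told apart. PLEC-210 (ENST00000527096, 13713 nt) led in each library, with 7255, 9198 and 9926 counts under siRNA-NC against 5621, 6458 and 8517 under si-AC010789.1. PLEC-206 (ENST00000357649) had 989, 1 and 42 counts under siRNA-NC against 1, 1 and 1308 under si-AC010789.1. PLEC-204 (ENST00000354958), which differs from PLEC-206 only by a first exon of 195 nt in place of 133 nt, had 315, 2017 and 1867 against 1822, 3137 and 418. Library 1 of siRNA-NC and library 3 of si-AC010789.1 were thus high in PLEC-206 and low in PLEC-204, and the other 4 libraries were the reverse. As a share of the gene, PLEC-206 took 10.9% and 12.1% in these 2 libraries and at most 0.325% in the others, and PLEC-204 took 3.48% and 3.88% there and from 14.5% to 28.3% in the others.

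EPPK1 (ENSG00000261150.2) encodes epiplakin, a plakin made of plakin repeat domains that binds keratin. It lies on chr8:143857324-143878464, next to PLEC on the same strand, and its leading transcript EPPK1-201 has 1 exon of 15530 nt. Of its 50-nt windows 52.4% occurred more than once within the transcript, the fifth highest share of the 3116 long leading transcripts, and 1.87% also occurred in another gene, most often PLEC. EPPK1 had 1810, 2600 and 2697 counts under siRNA-NC against 2102, 2325 and 2334 under si-AC010789.1, or 160.4, 196 and 202 CPM against 184, 186 and 189 CPM. The si-AC010789.1 libraries lay inside the range of siRNA-NC, whose library 1 was low. Both means were 186 CPM (SD 22.6 and 2.72), and the standard error of the log2 fold change was 0.09. Its log2 fold change was -0.10 without siRNA-NC replicate 1 and 0.06 without siRNA-NC replicate 3.

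**Figure D4:**
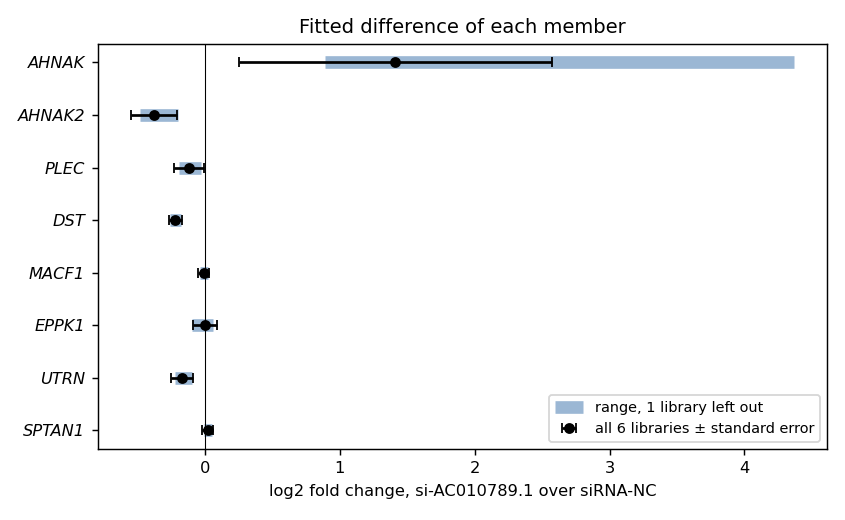
Fitted log2 fold change of si-AC010789.1 over siRNA-NC for each gene, with its standard error (black) and the range of the 6 fits that left out 1 library (blue). AHNAK spans 0.89 to 4.37, and every other gene stays between -0.48 and 0.06.

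To compare levels between genes, counts were divided by transcript length and scaled to the same total in each library (TPM, transcripts in 1000000). In siRNA-NC, SPTAN1 was highest at 346 ± 22.7 TPM, followed by AHNAK at 156 ± 45.5, MACF1 at 146 ± 15.5, PLEC at 126 ± 10.7 and DST at 117 ± 4.78. AHNAK2 was at 69.2 ± 7.01, EPPK1 at 23.1 ± 2.67 and UTRN at 20.3 ± 1.76 TPM (SD, n = 3 each). Neighbours from AHNAK to DST, and EPPK1 and UTRN, overlapped between their libraries. In si-AC010789.1 the TPM levels were 357 ± 12.7 for SPTAN1, 215 ± 17.6 for AHNAK, 143 ± 6.61 for MACF1, 116 ± 13.9 for PLEC, 107 ± 1.52 for DST, 52.8 ± 11.4 for AHNAK2, 23.2 ± 0.379 for EPPK1 and 16.6 ± 0.632 for UTRN. There only PLEC and DST overlapped. The AHNAK values in siRNA-NC libraries 2 and 3 (116 and 146 TPM) came mostly from its short transcripts, and AHNAK-202 alone was at 193, 3.73 and 3.19 TPM under siRNA-NC and at 185, 186 and 186 TPM under si-AC010789.1. In siRNA-NC library 1 the leading transcript held 14.1 of 121 TPM in DST and 18.7 of 163 in MACF1, but 71.6 of 74.9 in AHNAK2. Each transcript was divided by its own length, so a count assigned to a short transcript adds more TPM. The order of the genes therefore depends on how counts were assigned to transcripts.

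The leading transcript was not the same in all 6 libraries for 4 of the 8 members, AHNAK, DST, MACF1 and SPTAN1. Among 9460 genes with at least 2 transcripts and a mean of at least 100 counts this held for 43.9%. A distance between 2 libraries was taken as the percent of a gene's counts that would have to move between transcripts to make the divisions equal. For SPTAN1 it averaged 36.3% within the groups and 32.6% between them, for PLEC 16.6% and 15.7%, for DST 16.6% and 17.8%, for MACF1 17.4% and 14.3%, and for AHNAK 23.7% and 40.6%. Over all genes the median of these averages was 16.7% within and 17.0% between the groups. AHNAK2, EPPK1 and UTRN were below 1.1% in both. No member had every distance between the groups above every distance within them, which 1 of the 9460 genes had (0.0106%). Of 66 member transcripts in the fit over 44281 transcripts none was called, where 6 were called in all (0.0135%). An unadjusted p under 0.05 (edgeR) was found for 3 of the 66. The share of all transcripts with such a p was not computed, so nothing is read from this count.

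**Figure D5:**
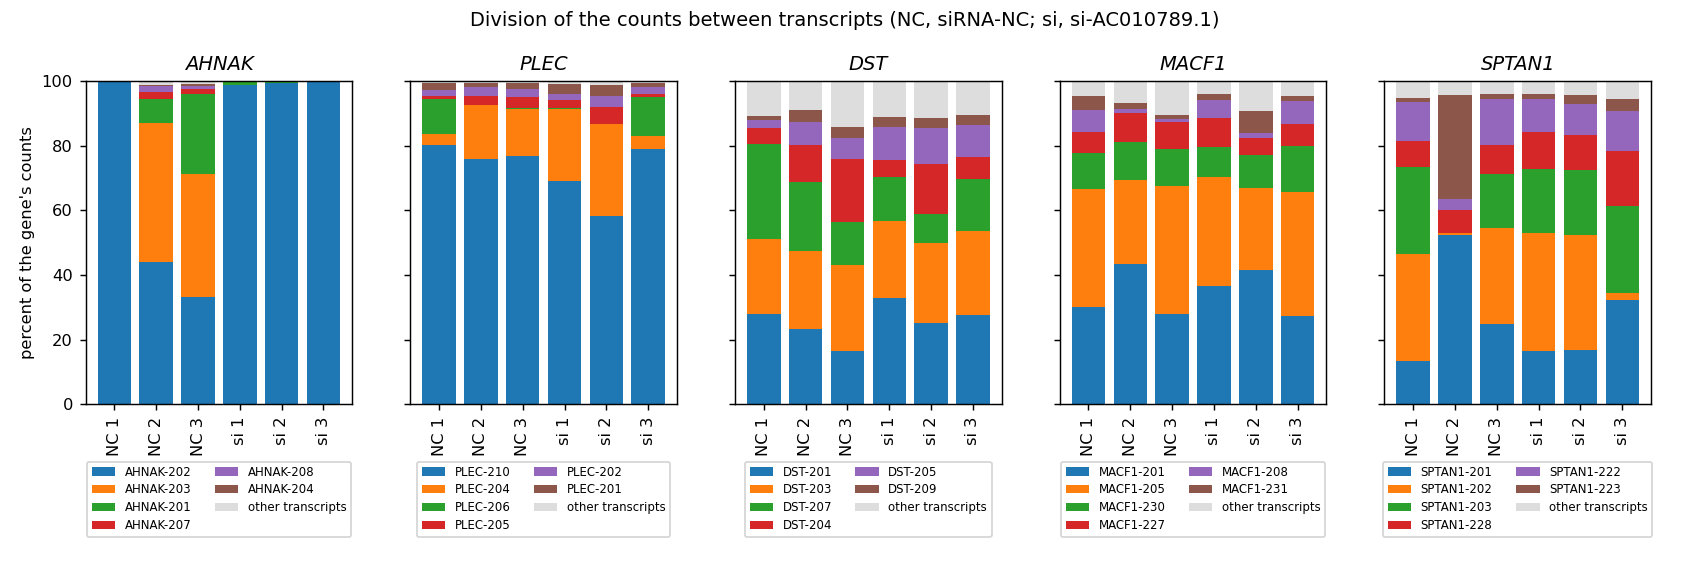
Share of the counts of AHNAK, PLEC, DST, MACF1 and SPTAN1 in each of their 6 most abundant transcripts, as stacked percentages for each library. AHNAK-202 holds 44.1% and 33.2% in siRNA-NC libraries 2 and 3 and at least 98.7% in the others, and SPTAN1-202 holds 0.562% in siRNA-NC library 2 and 2.26% in si-AC010789.1 library 3.

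The partners of these proteins were examined as 6 lists of 88 genes, of which 72 entered the fit, 35 of them higher under si-AC010789.1. None was called by edgeR, and DESeq2 called 2, CAMSAP2 and ANK3, beside 5.03% of all genes. An unadjusted p under 0.05 was found for 12 of the 72, a share near the 17.2% of all genes, against which the counts of each list are also to be read. Their median log2 fold change was -0.00776, beside -0.000662 over all genes. CAMSAP2, which binds microtubule minus ends and is named after its value was seen, was at 205 ± 7.65 CPM in the siRNA-NC libraries against 164 ± 9.09 CPM under si-AC010789.1. Its log2 fold change was -0.32 with a standard error of 0.06 and an adjusted p = 0.0658 from edgeR. The spectrin anchor ANK3 was at 29.8 ± 1.59 against 22.9 ± 1.28 CPM, and its log2 fold change was -0.38 with a standard error of 0.08 and an adjusted p = 0.1 from edgeR.

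By list, 9 of 17 plakin and spectrin-repeat relatives were higher and 5 had an unadjusted p under 0.05. The most abundant was ACTN4, an actin cross-linker, at 1104 ± 15.8 and 1021 ± 19.2 CPM (adjusted p = 0.201 from edgeR). Of 10 keratin and hemidesmosome partners 5 were higher and 1 had an unadjusted p under 0.05, and the most abundant was VIM at 831 ± 73.4 and 728 ± 89.2 CPM (adjusted p = 0.398 from edgeR). Of 6 AHNAK membrane partners 4 were higher and 1 had an unadjusted p under 0.05, led in abundance by MYOF, a ferlin of membrane repair, at 798 ± 12.5 and 816 ± 4.21 CPM (adjusted p = 0.695 from edgeR). MYOF did not follow AHNAK in siRNA-NC libraries 2 and 3, where it was at 813 and 793 CPM. Of 19 spectrin partners 6 were higher and 4 had an unadjusted p under 0.05, and CAST, the calpain inhibitor, was at 722 ± 23.9 and 688 ± 12.3 CPM (adjusted p = 0.444 from edgeR). Of 12 microtubule end partners 8 were higher and 1 had an unadjusted p under 0.05, and TRIO, an exchange factor, was at 477 ± 18.3 and 493 ± 15.0 CPM (adjusted p = 0.651 from edgeR).

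Of 8 genes of the dystroglycan complex, the membrane receptor that utrophin joins, 3 were higher and none had an unadjusted p under 0.05. DAG1, which encodes dystroglycan, was at 59.5, 611 and 612 CPM under siRNA-NC and at 627, 613 and 68.7 CPM under si-AC010789.1. Library 1 of siRNA-NC and library 3 of si-AC010789.1 were low, and the groups overlapped (log2 fold change 0.03, standard error 1.00, adjusted p = 0.991 from edgeR). These are the libraries in which PLEC-206 was high and PLEC-204 low, and not those in which AHNAK was low. DAG1 was also among the 10 genes that differed over 8-fold within a group. Over all 6 lists, library sums differed most in this one, from 281 to 834 CPM in siRNA-NC and from 270.4 to 844 CPM in si-AC010789.1.

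Transcripts of at least 10000 nt other than AHNAK were not low as a class in siRNA-NC libraries 2 and 3. They took 4.9% and 4.94% of the counts there and 4.82% in siRNA-NC library 1. The contrast between the groups, given next, does not measure such a drop within siRNA-NC. Of 534 other tested genes with a transcript of at least 10000 nt, 245 were higher under si-AC010789.1, and the median of their log2 fold changes was -0.0173. With 4 called by edgeR, their share was below the 0.982% of all genes. All 4 fell, namely EPN1 by 0.50, CDK6 by 0.43, MAP1A by 0.80 and TSHZ2 by 0.50 on the log2 scale, with adjusted p from 0.0216 to just under 0.05.

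The genes whose pattern over the 6 libraries was most like the mean of the members' centred log2 CPM were CXADR (Pearson r = 0.988), CASC19 (0.987), CCDC126 (0.981), RBPMS2 (0.981) and BIRC5 (0.978). The mean pattern was mainly that of AHNAK, with which it had r = 0.97, and 106 tested genes had an r of at least 0.9. The points share their libraries and were searched over all genes, so these values are a description. CXADR was at 70.6, 47.4 and 49.0 CPM under siRNA-NC and 69.8, 64.9 and 71.7 CPM under si-AC010789.1. It was low in the same 2 libraries as AHNAK, but by far less. Without AHNAK the mean of the other 7 members was 0.072, 0.026 and 0.094 on the centred log2 scale in siRNA-NC libraries 1, 2 and 3. In si-AC010789.1 libraries 1, 2 and 3 it was -0.044, -0.132 and -0.016. The groups did not overlap, which was not compared with other sets of genes, so nothing is read from it. In this mean siRNA-NC libraries 2 and 3 were not low.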

How the data were processed

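For each of 6 HCT116 libraries the authors deposited read counts as whole numbers, not normalized, with 1 row per Ensembl transcript. CASAVA 1.8, TopHat2 2.0.6 and the builds GRCh38 and mm10 are named in the submitters' processing notes without a role. The counting program, its strand setting and the annotation are not given in the sources used here, and these decide how counts divide between transcripts. The paper names Cuffdiff, which needs alignments and was not run. Of 98886 transcripts, 98782 were matched to GENCODE v29 (GRCh38) and 104 were left out. The matched transcripts held 99.897% to 99.931% of the counts of a library. Counts were summed per gene and tested with edgeR 4.0.16 in R 4.3.3 (TMM factors between 0.9935 and 1.0073, quasi-likelihood test, Benjamini-Hochberg adjustment, threshold 0.05) on genes kept by filterByExpr at its minimum of 10 counts and its total of 15, after the script was tested on simulated data. Total counts of 11277222 to 13443866 set the precision. The replicates differed beyond sampling noise (chi-square per degree of freedom from 15.4 to 19.2). TPM were computed with annotated transcript lengths, with pandas 2.3.3 and numpy 2.4.6 under Python 3.11.15, and plots were made with matplotlib 3.10.9.

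Members, lists and tests were chosen with earlier results of these data known. The text names all members, their 3 most abundant transcripts, partner genes past the threshold or else the most abundant of each list, and the 5 genes of most similar pattern (log2 CPM with a prior count of 2). Other genes are named after their values were seen. The exon shares, repeats and sequences were also chosen after the data were seen. Alternatives were DESeq2 1.42.0, its size factors in edgeR, no filter, a mean CPM of at least 1 and the replicate number as a block. Others were the study's limits with the unadjusted p from edgeR, other length limits, protein-coding transcripts alone, and leaving out each library. The replicate numbers were not taken to pair the libraries, since the labels give no pairing. Deviations of same-numbered libraries correlated with r = 0.111, 0.011 and 0.016, and those of differently numbered libraries with r from -0.089 to 0.079. A pairing was not excluded.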

Additional observations from a re-analysis of the deposited data

How the results depend on the processing

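The number of genes called was 135 and moved to 559 with DESeq2, which shared 131 of them, to 69 without the filter on low counts, all of them shared, and to 12 to 37 with 1 library left out (15, 28 and 24 without siRNA-NC replicates 1, 2 and 3, and 37, 17 and 12 without si-AC010789.1 replicates 1, 2 and 3). It was 3 with siRNA-NC replicate 1 as the only control, a setting added after the data were seen, in which the lone library is assumed to vary like the other group. The cause of these differences was not tested, although fewer libraries leave fewer degrees of freedom. The number of members called was 0 and became 1 with DESeq2 (DST) and 1 without siRNA-NC replicate 1 (AHNAK), and ranged from 0 to 1 with 1 library left out. DESeq2 gave no adjusted p for AHNAK. The number of partner genes called was 0 and became 2 with DESeq2. The 4 long genes called became 29 with DESeq2, 1 without the filter, 0 to 2 with 1 library left out (2 without si-AC010789.1 replicate 1 and 0 in the other 5 fits), 0 with siRNA-NC replicate 1 as the only control, 11 at a length limit of 8000 nt and 2 at 12000 nt. The number of members with a changing leading transcript was 4 and lay at 3 without siRNA-NC replicate 3 and with protein-coding transcripts alone.

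With the replicate number as a block, 0 genes and 0 long genes were called by edgeR, where 2163 genes had an unadjusted p under 0.05 (2360 without the block), and DESeq2 without a block called 559. The labels do not say whether the numbers pair the libraries, so whether this block is apt is not known. No member or partner gene was called with it. The log2 fold change of AHNAK moved from 1.41 to 3.12 with the block.

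With siRNA-NC replicate 1 as the only control the log2 fold change was -0.48 for AHNAK2, -0.30 for DST, -0.07 for MACF1 and -0.29 for UTRN, and its sign turned in the other members, to -0.04 for AHNAK, 0.03 for PLEC, 0.21 for EPPK1 and -0.03 for SPTAN1. With 1 library left out, MACF1, EPPK1 and SPTAN1 lay on both sides of 0.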
